A study of Rattus norvegicus with 12 samples.

Results

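The secreted WNT regulators examined here were 9 genes, namely the frizzled-related proteins Sfrp1, Sfrp2, Sfrp4 and Frzb, the Dickkopf genes Dkk1, Dkk2 and Dkk3, the WNT inhibitory factor Wif1 and the ligand Wnt5a. They were found by gene symbol: every probe set of the array whose platform annotation gave one of these names as its single symbol was taken. This gave 16 probe sets for 8 of the 9 genes, out of 31042 probe sets and 14217 genes with a symbol of their own. No probe set carried the name or the gene identifier of Dkk1 in the annotation used, so Dkk1 was not analysed here. Between the Tumor and A16 cells none of the 16 probe sets passed both an adjusted p under 0.05 and a fold of 2. Of all probe sets, 11.9% did. All 16 were dim, with means at or below the 50th percentile of probe set means in both groups. The share among equally dim probe sets was not counted, so nothing particular to the members is read from this. With technical replicate 2 averaged with replicate 1, Wif1 alone passed on adjusted p, at a level 1.90-fold higher in Tumor cells, against 31.8% of all probe sets. Under 2 of the 3 other uses of that array 4 or 5 of the 16 passed, all of them under 2-fold. The share of all probe sets was not counted there, and the count of 5 treats a technical repeat as an independent replicate.

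WNT proteins are secreted lipid-modified ligands that bind frizzled receptors, with LRP5 or LRP6 as co-receptor, and in the canonical branch of the pathway they spare β-catenin from destruction so that it can work with TCF/LEF factors in the nucleus. Outside the cell, 2 kinds of inhibitor hold this in check. The frizzled-related proteins and Wif1 bind WNT ligands themselves, whereas Dkk1 and Dkk2 bind the LRP co-receptors. Fibroblasts and other stromal cells are well known sources of these factors, and in several human cancers the genes of the first kind are silenced by promoter methylation.

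Expression was measured on Affymetrix rat whole-genome arrays in 2 groups of cells. Tumor cells were grown in culture from tumours taken from nude mice 3 months after subcutaneous injection of F111 cells that had been kept in suspension for 16 h. A16 cells were F111 cells, a fibroblast line of Fischer rat origin, left to adhere to plastic for 16 h, and served as the control. Each group had 3 arrays, which were biological replicate 1 (its first technical replicate), technical replicate 2 and biological replicate 2, called replicate 1, technical replicate 2 and replicate 2 below, and values are given in that order throughout. Technical replicate 2 was averaged with replicate 1, which left n = 2 per group. Replicates 1 and 2 are biological by their labels, but nothing there tells if each was a culture or an animal of its own, so the p-values cover the spread of these samples and no more. Host mouse cells could remain in the tumour cultures, and the labels give one medium for all cells whereas the methods give a higher share of serum for tumour explants. All values below are log2 of the deposited RMA intensity, and a difference is Tumor minus A16 with its standard error from limma.

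Over all probe sets, arrays of a group correlated at 0.991 to 0.997 and arrays of different groups at 0.933 to 0.949. The labelling controls differed between the groups. The poly-A spikes averaged 4.86 on Tumor arrays and 7.65 on A16 arrays, whereas the hybridisation spikes averaged 10.99 on Tumor arrays and 9.95 on A16 arrays. The 3′ minus 5′ difference was 2.30 on Tumor arrays and 0.67 on A16 arrays for β-actin, and 0.29 on Tumor arrays and −0.03 on A16 arrays for Gapdh. The cells' state and the preparation of their RNA therefore cannot be told apart in any difference below. The arrays read vimentin at 14.19 in Tumor and 14.29 in A16 cells, and the collagen gene Col3a1 at 11.72 in Tumor and 11.79 in A16 cells, whereas 4 of 12 fibroblast markers were lower in Tumor cells, among them Col1a1 at 10.73 in Tumor and 14.19 in A16, and none was higher. The summed level of the 12 spanned 15.94 to 15.99 on Tumor arrays and 16.50 to 16.63 on A16 arrays. Among 12 macrophage and leukocyte markers, Csf1r (8.59 in Tumor, 5.46 in A16) and Cd68 (7.09 in Tumor, 6.01 in A16) were higher in Tumor cells, and the other 10 were not called. Of these, Ptprc (5.06 in Tumor, 5.13 in A16) and Adgre1 (4.11 in Tumor, 3.97 in A16) were among the 4 near the array floor in both groups, while Cd14 (9.76 in Tumor, 9.93 in A16) and Laptm5 (7.51 in Tumor, 7.22 in A16) were well above it. PLIER put Adgre1 higher in Tumor by 0.78 (adjusted p 0.0058) and Laptm5 by 0.69 (adjusted p 0.0159). The summed level of the macrophage and leukocyte list spanned 10.91 to 10.97 on Tumor arrays and 10.56 to 10.71 on A16 arrays, and the part of either list in the results below was not tested. A difference in a bulk RNA sample cannot tell fewer cells expressing a gene from less RNA per cell.

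The Wif1 result is shown with the sequence at the start of the gene, since Wif1 is the member with the largest difference, though under 2-fold. The window holds 250 bases before and 50 after the annotated start in RefSeq on the rat build GRCr8, chr7:58433329-58433628 on the plus strand, written with each CpG dinucleotide in capitals.
Wif1: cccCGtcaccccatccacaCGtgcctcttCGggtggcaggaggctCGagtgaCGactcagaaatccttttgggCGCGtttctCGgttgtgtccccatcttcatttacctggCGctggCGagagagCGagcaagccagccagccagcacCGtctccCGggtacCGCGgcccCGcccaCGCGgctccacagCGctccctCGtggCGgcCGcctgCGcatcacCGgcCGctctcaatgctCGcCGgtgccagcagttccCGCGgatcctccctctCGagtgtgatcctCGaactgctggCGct
It contained 32 CpG dinucleotides, and 8.37% of the 33469 rat windows of this length had as many, against a median of 7. Of the other members, 4 had a window in the same table, with 30 CpG dinucleotides for Wnt5a, 21 for Sfrp2, 10 for the unmeasured Dkk1 and 4 for Frzb. The letters CTTTGA, a core recognised by TCF/LEF factors, were looked for on both strands and occurred in the window of Dkk1 but in none of the other 4. Of all windows, 16.1% held them. Nothing on these arrays measures methylation or binding at these windows.

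The members were dim. Averaged over the 6 arrays, their probe sets stood between the 2.91 and the 48.1 percentile of all probe sets, and no value on any array was below 4.09 or above 6.73. A group was called near the array floor where its mean was at or below 5.54, the 30th percentile of probe set means. By this rule 10 of the 16 probe sets were near the floor in both groups, 2 were near it in A16 alone, none in Tumor alone, and 4 were above it in both. Probe sets for the bacterial gene Trp, which is not spiked in and so shows what an absent transcript reads, spanned 3.94 to 4.53 on the 6 arrays. A position in this ranking describes how bright a probe set was and does not compare amounts of RNA between genes.

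**Figure D1:**
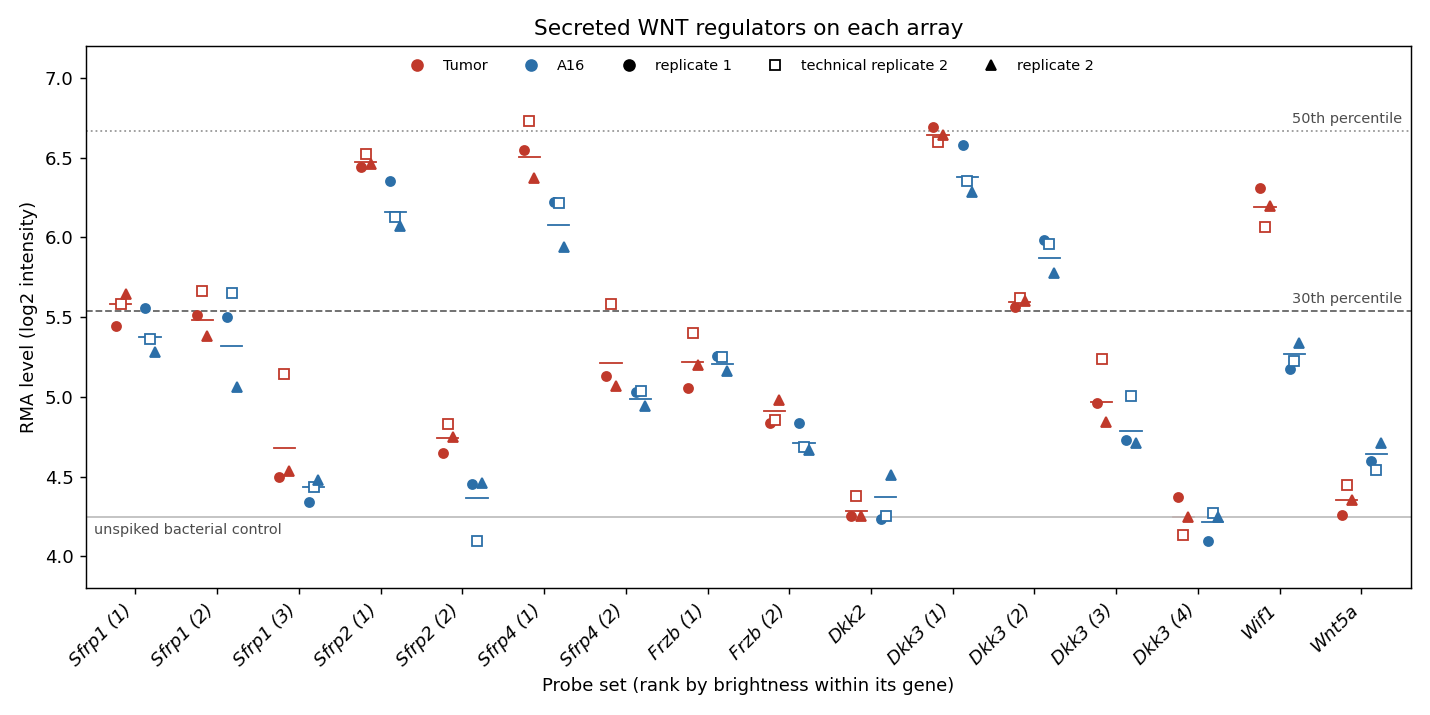
Level of each probe set of the secreted WNT regulators, as log2 RMA intensity, on the 3 Tumor arrays (red, left of each pair) and the 3 A16 arrays (blue), where bars mark the mean of n = 2 replicates and horizontal lines the 30th percentile (5.54) and the 50th percentile (6.67) of all probe sets and the A16 mean of the bacterial Trp control (4.25). Every group mean lies under the 50th percentile, and Wif1 shows the widest gap, with Tumor arrays from 6.06 to 6.31 and A16 arrays from 5.18 to 5.34.

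Among the WNT-binding inhibitors, Wif1 showed the largest difference. Its probe set, 1369203_at, read 6.31, 6.06 and 6.20 on the Tumor arrays, against 5.18, 5.22 and 5.34 on the A16 arrays. All 3 Tumor arrays lay above all 3 A16 arrays, and the lowest Tumor value exceeded the highest A16 value by more than the arrays of either group differed among themselves. The mean was 6.19 ± 0.01 in Tumor and 5.27 ± 0.10 in A16 cells (SD, n = 2 each), a difference of 0.92 ± 0.11, with an adjusted p of 0.0015 in limma and a 95% interval of 0.65 to 1.20 that reached past 2-fold. Tumor cells were above the floor and A16 cells near it. A fold against a level near the floor can understate the change, which was not tested here. Of all probe sets, 31.8% had an adjusted p under 0.05 at any fold, and 11.9% also passed the fold of 2 that Wif1 missed. With PLIER, the second algorithm applied to the same arrays, the difference was 0.75 ± 0.13 (adjusted p 0.0069). Under the methods' t-test, which draws on the spread of this probe set alone, the Benjamini-Hochberg adjusted p of Wif1 was 0.0868.

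Sfrp4, a frizzled-related protein, had 2 probe sets. The brighter one, 1368394_at, read 6.55, 6.73 and 6.37 on Tumor arrays, against 6.22, 6.21 and 5.94 on A16 arrays. The groups did not overlap and both stood above the floor, but the gap between them was narrow beside the range within each. The difference was 0.43 ± 0.15, with an adjusted p of 0.0789 in limma, and with PLIER it was −0.02 ± 0.25 (adjusted p 0.964). The dimmer probe set, 1388021_at, was near the floor in both groups, with 5.13, 5.58 and 5.07 on Tumor arrays and 5.03, 5.04 and 4.94 on A16 arrays. Technical replicate 2 was the high Tumor value here, and the difference of 0.23 ± 0.14 had an adjusted p of 0.268 with RMA, against 0.62 ± 0.13 and 0.0124 with PLIER.

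Sfrp2, also a frizzled-related protein, had 2 probe sets, and neither passed the threshold with RMA. The brighter, 1396614_at, read 6.44, 6.52 and 6.46 on Tumor arrays and 6.35, 6.13 and 6.07 on A16 arrays, above the floor in both groups. Tumor arrays lay together within a narrow band, and replicate 1 was the A16 array closest to them. The difference was 0.32 ± 0.12 (adjusted p 0.0894), and 0.40 ± 0.13 with PLIER (adjusted p 0.0599). The dimmer, 1390119_at, was near the floor, at 4.65, 4.83 and 4.75 on Tumor arrays and 4.46, 4.09 and 4.46 on A16 arrays, where the A16 values were within the span of the Trp control. Its difference was 0.38 ± 0.12 (adjusted p 0.0534), and 0.50 ± 0.15 with PLIER (adjusted p 0.0398).

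Sfrp1, the third frizzled-related protein, had 3 probe sets, none of which met the threshold with RMA. The brightest, 1382878_at, read 5.45, 5.58 and 5.64 on Tumor arrays and 5.56, 5.36 and 5.28 on A16 arrays, so that the groups overlapped about the floor, with the A16 mean of 5.37 below it and the Tumor mean of 5.58 just above it. The difference was 0.21 ± 0.12 (adjusted p 0.263). The next, 1371861_at, was near the floor in both groups, overlapped, and differed by 0.16 ± 0.19 with RMA and by −0.31 ± 0.16 with PLIER. In the dimmest, 1383266_at, the algorithms pointed opposite ways. RMA gave 4.50, 5.14 and 4.54 on Tumor arrays and 4.34, 4.44 and 4.48 on A16 arrays, a difference of 0.24 ± 0.14 (adjusted p 0.232), while PLIER gave −0.68 ± 0.13 (adjusted p 0.0098). No direction is therefore given for Sfrp1.

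Frzb, the fourth of this family, was near the floor in both groups by both of its probe sets. The brighter, 1373615_at, read 5.06, 5.40 and 5.20 on Tumor arrays and 5.26, 5.25 and 5.16 on A16 arrays. The groups overlapped, and the difference was 0.01 ± 0.11 (adjusted p 0.968), with a 95% interval of −0.26 to 0.27. The dimmer, 1375961_at, at 4.84, 4.85 and 4.98 on Tumor arrays and 4.83, 4.69 and 4.67 on A16 arrays, was separated by a margin smaller than the range within either group, and differed by 0.20 ± 0.12 (adjusted p 0.256).

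The Dickkopf genes showed no probe set past the threshold. Dkk2, which binds the LRP co-receptors, read 4.25, 4.38 and 4.25 on Tumor arrays and 4.23, 4.25 and 4.51 on A16 arrays by its only probe set, 1397684_at. All 6 values fell inside the span of the Trp control, so that its level could not be told from that of an absent transcript. The difference was −0.09 ± 0.13 (adjusted p 0.669). Dkk3, a divergent family member that does not act on the LRP co-receptors as its relatives do, had 4 probe sets with different readings. The brightest, 1370328_at, was above the floor and read 6.69, 6.60 and 6.64 on Tumor arrays and 6.58, 6.35 and 6.29 on A16 arrays, a difference of 0.27 ± 0.12 (adjusted p 0.139). The next, 1397754_at, also above the floor, was lower on every Tumor array, at 5.56, 5.62 and 5.60 in Tumor and 5.98, 5.96 and 5.77 in A16, a difference of −0.28 ± 0.12 (adjusted p 0.136). These 2 probe sets of Dkk3 thus separated the groups in opposite directions, by amounts of like size. The remaining 2 were near the floor, with differences of 0.18 ± 0.14 and 0.03 ± 0.11.

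Wnt5a, a ligand that signals mostly through the β-catenin-independent branch and can oppose canonical signalling, had the lowest difference of the members. Its only probe set, 1369263_at, read 4.26, 4.45 and 4.35 on Tumor arrays and 4.60, 4.54 and 4.71 on A16 arrays. Every Tumor array was below every A16 array, and the Tumor values lay within the span of the Trp control while the A16 values lay just above it. The difference was −0.29 ± 0.11 (adjusted p 0.108) with RMA and −0.53 ± 0.18 (adjusted p 0.059) with PLIER.

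Set side by side, 13 of the 16 probe sets had the higher mean in Tumor cells and 3 in A16 cells. In 10 of the 16, or 62.5%, the arrays of the groups did not overlap, with Tumor above in 8 and below in 2. Of all probe sets, 52.6% did not overlap, in either direction. How many of all probe sets, or of equally dim ones, were higher in Tumor cells was not counted. Several of the 16 shared a gene, with 4 for Dkk3 and 3 for Sfrp1. No direction of the members as a set is therefore read from these splits. An adjusted p under 0.05 at any fold was reached by 1 of 16, against the 31.8% of all probe sets given above, and an unadjusted p under 0.05 by 5, against 41.3% of all probe sets. The count of 1 at adjusted p depended on technical replicate 2. With that array as a replicate of its own it was 5, with it averaged with replicate 2 it was 4, and with it left out it was 1. The first of these treats a technical repeat as independent, so its adjusted p-values can be too small. Technical replicate 2 correlated with replicate 1 at 0.997 in both groups, and with replicate 2 at 0.995 in Tumor and 0.991 in A16. The share of all probe sets at any fold was not counted in these settings, so no result about the members is read from these counts. The brighter probe set of Sfrp4 passed in both settings that raised the count (0.42, adjusted p 0.0201, and 0.40, adjusted p 0.0123), as did the dimmer of Sfrp2 (adjusted p 0.0212 and 0.02996) and the second of Dkk3 (−0.31, adjusted p 0.0229, and −0.34, adjusted p 0.0250), and the brighter of Sfrp2 passed in the first alone (adjusted p 0.0431). Without A16 replicate 1 the differences were 0.56 and 0.40 for the brighter probe sets of Sfrp4 and Sfrp2, and 0.42 for the second of Sfrp1. The median difference over the 16 was 0.20, beside 0.03 over all probe sets, and the median size of the difference was 0.24 in both. The 95% interval lay wholly within 2-fold for 15 probe sets, with bounds from −0.56 to 0.79, and only that of Wif1 reached further. These intervals are for RMA levels, and 10 of the 16 were near the floor in both groups, where a difference can be understated. With PLIER the dimmest probe set of Sfrp1 was at −0.68, outside these bounds. Between arrays of one group, replicate 1 and technical replicate 2 of a member probe set differed by a median of 0.15 and at most by 0.64, and replicates 1 and 2 by a median of 0.13 and at most by 0.44.

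The second algorithm did not give the same order of differences. RMA and PLIER gave the same sign for 12 probe sets and opposite signs for 4, namely the brightest of Sfrp4 and of Frzb and both dimmer ones of Sfrp1. With PLIER, 4 of 16 had an adjusted p under 0.05 at any fold, against 35.6% of all probe sets, and none of the 4 reached a fold of 2. They were Wif1, the dimmer probe sets of Sfrp2 and Sfrp4 and the dimmest of Sfrp1, of which the first 3 were higher in Tumor cells.

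**Figure D2:**
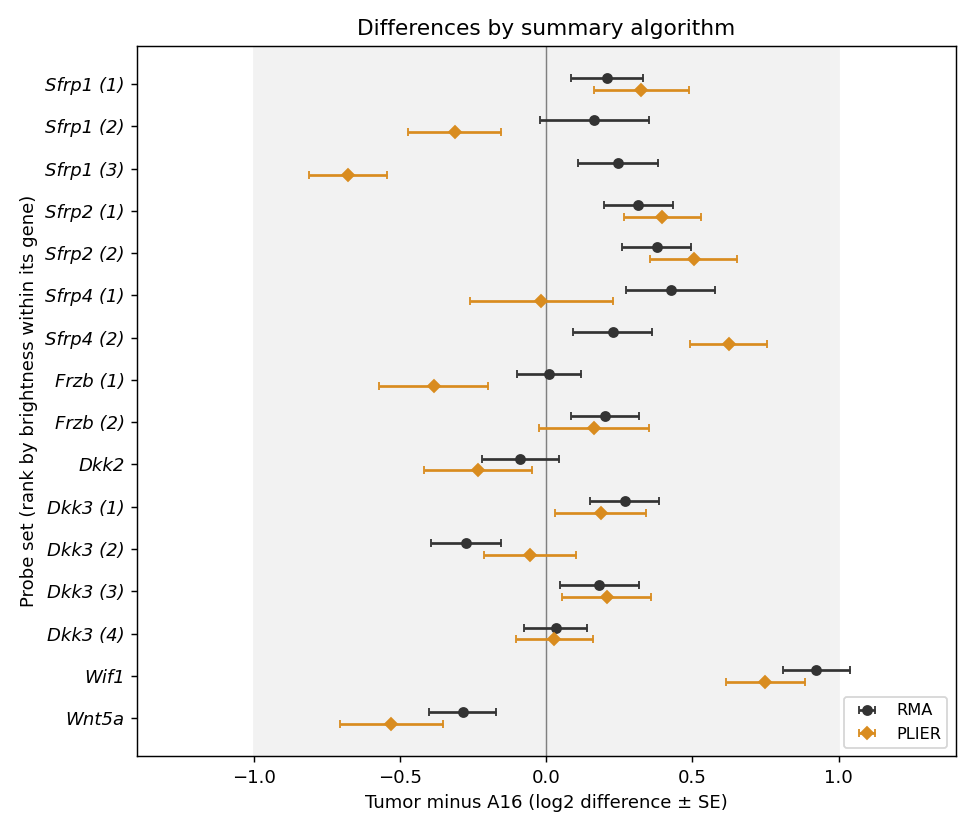
Difference Tumor minus A16 (log2, ± SE from limma) of each probe set of the secreted WNT regulators by RMA (black circles) and by PLIER (orange diamonds), where the shaded band marks differences under 2-fold. All 16 probe sets lie within the band by both algorithms, Wif1 lies nearest its upper edge at 0.92 by RMA and 0.75 by PLIER, and 4 probe sets change sign between the algorithms.

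The genes whose levels followed those of Wif1 most closely over the 6 arrays, each centred on its own mean, were Rdh14, Ccnl1 and Sumf1, with root mean square differences of 0.02, 0.05 and 0.05, and 81 genes lay within 0.1 of Wif1 by this measure. For Wnt5a the nearest were Thpol1, Tom1l2 and Kcnip3, at 0.03, 0.04 and 0.04, and 338 genes lay within 0.1. As the arrays fall into only 2 groups, any gene with a like difference between them came out as near.

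The remainder of the WNT pathway was read from 5 lists of 108 genes, of which 87 had a probe set, each gene by its brightest. A gene was called at an adjusted p under 0.05 and a fold of at least 2, as were 10.9% of all genes. In Tumor cells 6 of the 87 genes had the higher and 12 the lower level, 20.7% in all, with a median difference of −0.04. None of the 8 members was called, and their median was 0.24. Group means reached at most 6.64 among the members and 11.16 among receptors and co-receptors, and calls were not compared at equal brightness. Of 15 other secreted factors 1 was called, Tinagl1, a matrix protein, at −1.50 ± 0.11 (adjusted p 0.000206), and their median was 0.02. Wls passed on adjusted p and missed the fold of 2, at −0.82 ± 0.11 (adjusted p 0.0020). Of 12 other ligands 1 was called, Wnt4, at 5.19 ± 0.37 in Tumor and 7.19 ± 0.05 in A16 cells (SD, n = 2 each), 4.01-fold lower in Tumor cells (adjusted p 0.000484). Its Tumor level was near the floor, as were that of Dvl2 in Tumor cells (4.80) and that of Tcf7 in A16 cells (5.40) among the genes below. These folds may understate the change, which was not tested. Of the other ligands, Wnt6 (−0.86 ± 0.14, adjusted p 0.0046) and Wnt9a (−0.50 ± 0.13, adjusted p 0.0279) passed on adjusted p and missed the fold of 2.

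Receptors are the partners through which the ligands bound by Wif1 and the frizzled-related proteins act. Of 15 measured receptors and co-receptors 6 were called lower in Tumor cells and none was called higher, with a median of −0.70. Fzd8, named here after its values were seen, missed the fold of 2 as Wif1 did, at 9.23 in Tumor and 8.30 in A16 cells, a difference of 0.93 ± 0.11 (adjusted p 0.0012), and 0.87 with PLIER. Fzd5 (−0.85), Ryk (−0.70) and Fzd1 (−0.59) also passed on adjusted p and missed the fold of 2, all of them lower in Tumor cells. Fzd4, a frizzled receptor, was at 6.49 ± 0.11 in Tumor and 10.72 ± 0.32 in A16 cells, a difference of −4.22 ± 0.17 (adjusted p 2.47e-05), and its other probe set differed by −3.56. The pseudokinase co-receptor Ptk7 differed by −3.96 ± 0.15, Fzd2 by −3.13 ± 0.16 and Lgr4, a receptor for R-spondins, by −2.04 ± 0.23. Within the cell, 4 of 30 genes were higher and 2 lower, with a median of −0.09. At any fold 14 of the 30 passed on adjusted p, where 31.8% of all probe sets did. Tcf7, a nuclear partner of β-catenin, was higher by 2.18 ± 0.16 and is also counted among the targets, Prickle1 was higher by 1.54 ± 0.11, and Dvl2, a transducer below frizzled, was lower by 1.70 ± 0.31. Probe sets of Ctnnb1, which encodes β-catenin, disagreed: the brightest was higher by 1.51 ± 0.16 and another lower, at −1.38 ± 0.18. The remaining Ctnnb1 probe sets were not called, a bright one at −0.32 (12.42 in Tumor, 12.73 in A16) and a dim one at 0.54. For Prickle1 a dimmer probe set was at −0.49.

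Of 18 measured β-catenin target genes 3 were higher and 2 lower in Tumor cells, with a median of 0.23. Beside Tcf7, Bambi, an inhibitory pseudoreceptor of the TGF-β family, was higher by 1.74 ± 0.14 and Ccnd1, the cyclin of G1 phase, by 1.42 ± 0.11. Ccn5, a matricellular protein also known as WISP2, was at 5.81 ± 0.24 in Tumor and 8.90 ± 0.11 in A16 cells, a difference of −3.10 ± 0.15 (adjusted p 4.28e-05). Axin2 (0.78 ± 0.21, adjusted p 0.0323) and Myc (0.60 ± 0.11, adjusted p 0.0069) passed on adjusted p and missed the fold of 2. With PLIER the adjusted p of Axin2 was 0.0634.

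**Figure D3:**
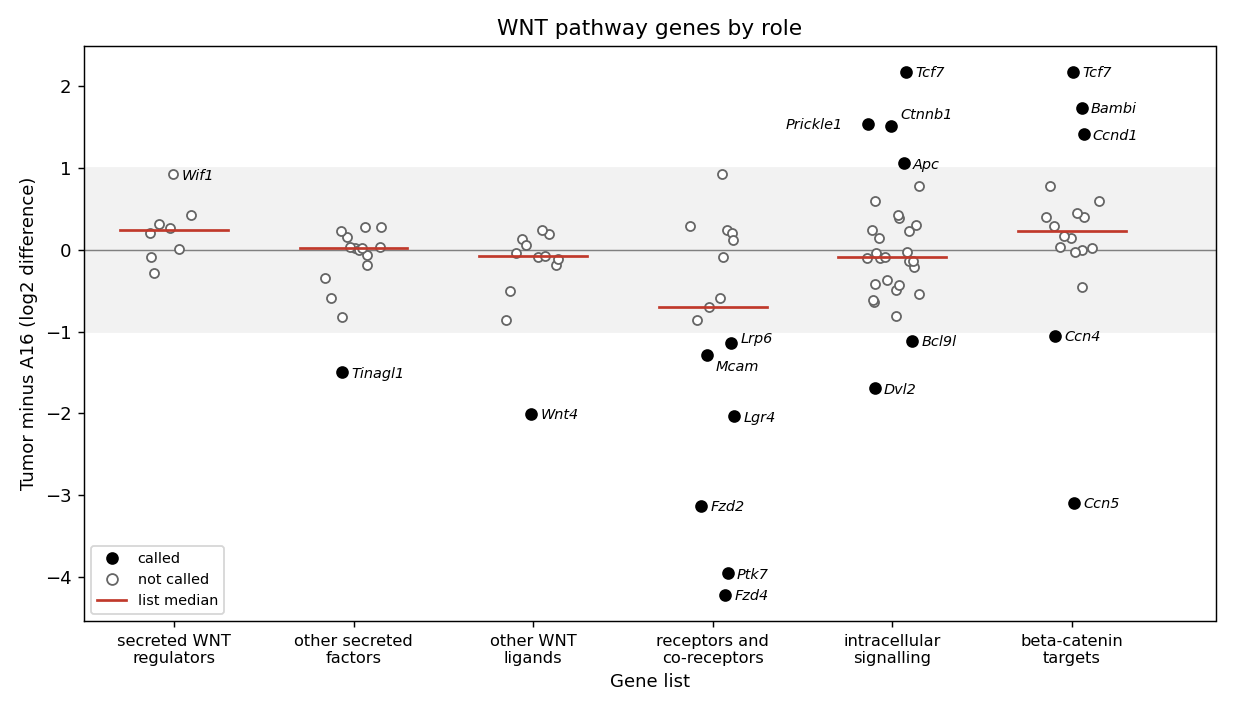
Difference Tumor minus A16 (log2, by the brightest probe set) of each gene in the 8 measured secreted WNT regulators and in 5 lists of other WNT pathway genes, where filled points were called, red bars mark list medians and the shaded band marks differences under 2-fold. No member lies outside the band, 6 receptors lie below it and Fzd4 is lowest at −4.22.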

How the data were processed

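Total RNA of 2 groups of cells was hybridised to Affymetrix rat whole-genome arrays, 3 per group, and each array was deposited under 2 algorithms, which gave 12 records. Per the methods the arrays were read with Gene Chip Operating Software and summarised in Avadis with RMA and with PLIER (no version of either was given in the sources read). The authors deposited both as normalized linear intensity, without detection calls, so that log2 was taken. On each array the minimum of PLIER was 16, taken as an offset already added, and log2 of PLIER was used without a further one. Gene names came from the platform annotation, in which 20826 probe sets had 1 symbol, 436 several and 9780 none.

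Technical replicate 2, whose labels give no biological number, was averaged with replicate 1. A linear model with moderated variances (limma 3.58.1, R 4.3.3, two-sided) compared Tumor with A16 over 31042 probe sets, leaving out 57 controls, with Benjamini-Hochberg adjustment over all of them. The brightest probe set stood for a gene. Replicate numbers are shared between the groups, but the labels state no shared culture, so no pairing was assumed. Same-numbered replicates' deviations from their group means correlated at 0.12 over probe sets. With n = 2 per group the second pair mirrors the first, so this value cannot decide on pairing. The precision is limited by the number of arrays.

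The members, lists and tests were chosen with earlier results of these data known. The genes named were all members, up to 4 called genes of each other WNT list by size of difference, and the 3 nearest genes to the members with the largest rise and fall. Genes that passed on adjusted p and missed the fold of 2 were also named, after their values were seen, except in the intracellular list. Of the 9 lists of cell type markers, 1 gene or more was called in the lists for fibroblasts (0 higher, 4 lower of 12), macrophages and leukocytes (2 higher of 12), epithelium (Krt8 higher, of 9), pericytes and smooth muscle (Acta2 lower, of 8), adipocytes (Cfd lower, of 7) and skeletal muscle (Chrna1 higher, of 6), and none of 8 endothelial, 5 cartilage and bone or 5 neural genes was called. The alternatives were PLIER with both offsets, other uses of technical replicate 2, a filter on dim probe sets, quantile and median normalization, each replicate left out, a replicate block, the methods' t-test, any fold, the mean of a gene's probe sets, other floor percentiles and, chosen after seeing the data, an intensity trend with robust estimation in eBayes.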

Additional observations from a re-analysis of the deposited data

How the results depend on the processing

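No member probe set was called with RMA under any other normalization, use of technical replicate 2 or left-out replicate, or with PLIER. With a PLIER offset of 1, 2 of 16 were called, where 5764 of all 31042 probe sets were. They were the dimmest of Sfrp1, lower at −1.44 (adjusted p 0.00753), and the dimmer of Sfrp4, higher at 1.07 (adjusted p 0.0122). At any fold, Wif1 alone (1 of 16) passed with RMA, where 31.8% of all probe sets did, against 4 with PLIER, where 35.6% did. The count was 5 with a PLIER offset of 1 and 5 with technical replicate 2 as its own replicate. It was 4 with that array averaged with replicate 2. It was 3 with a replicate block and 3 with the intensity trend (among them Wnt5a, adjusted p 0.0474). For these other settings the share of all probe sets was not counted. The difference of Wif1 spanned 0.75 to 1.00 over 14 alternatives, and its limma adjusted p 5.50e-05 to 0.0207. The lowest came with technical replicate 2 as its own replicate, which treats a technical repeat as independent. The highest came with a PLIER offset of 1. Only the methods' t-test after Benjamini-Hochberg adjustment put Wif1 over 0.05, at 0.0868 (0.00579 unadjusted). The median difference of the members, 0.238, was 0.0847 with PLIER, 0.111 with a PLIER offset of 1, 0.149 with technical replicate 2 averaged with replicate 2, 0.370 over probe sets above the 30th percentile and 0.155 with the mean of a gene's probe sets, and spanned 0.149 (without A16 replicate 2) to 0.327 (without A16 replicate 1) with a replicate left out. The cause was not tested.

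Signs turned for 3 genes. Sfrp4 was at −0.0169 with PLIER and −0.0137 with a PLIER offset of 1. Frzb was at −0.386 with PLIER, −0.678 with a PLIER offset of 1, −0.0794 with technical replicate 2 left out, −0.00216 with it as its own replicate, −0.0511 with it averaged with replicate 2 and −0.0564 under quantile normalization, and spanned −0.0363 to 0.0526 with a replicate left out. Dkk2 spanned −0.223 to 0.0445, positive without A16 replicate 2. Near the floor in both groups were 10 probe sets, but all 16 at the 50th percentile.

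Of the other WNT genes 18 were called, 17 to 20 with a replicate left out and 0 under the methods' t-test after Benjamini-Hochberg adjustment. Over all probe sets 1709 were higher and 1985 lower, against 3113 and 2651 with a PLIER offset of 1 and, by the methods' t-test, 1607 and 1493 at its own threshold, where 0 member probe sets were called, and 4 and 8 after adjustment. With the replicate number as a block, 0 member probe sets and 18 other WNT genes were called, and the members' median was 0.238. Of the remaining values under the alternatives, 136 for single genes kept their direction and their side of the threshold of adjusted p with a fold of 2, though not always of adjusted p alone, as the counts at any fold show, and 41 for counts and medians stayed within 1.5 times or within the spread between replicates. Levels near the floor and n = 2 per group limit how small a difference can be seen.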
